A study of Homo sapiens with 6 samples.

Results

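Polycomb repressive complex 2 (PRC2) and the enzymes of DNA methylation were followed at the RNA level across the LINC00115 knockdown (KD) comparison. The 10 genes are Ezh1, Ezh2, Eed and Suz12 of PRC2, the DNA methyltransferases Dnmt1, Dnmt3a and Dnmt3b, the Dnmt1 partner Uhrf1, and the methylcytosine dioxygenases Tet2 and Tet3. They were taken by symbol from the deposited table of 22989 genes, in which all 10 were found, and all 10 were among the 13497 genes that passed the filter on low counts. The study sequenced RNA of PTX-resistant MDA-MB-231 BCSC to ask how LINC00115 acts in these cells. MDA-MB-231 is an established line from a triple-negative breast tumour, PTX is paclitaxel, and BCSC are the cells sorted for high aldehyde dehydrogenase activity. The 3 KD libraries carry the genotype LINC00115 knockdown, made with a short hairpin RNA, and the 3 control libraries the genotype WT. Whether the WT cells carried a control hairpin is not given in the labels. No source used here says whether the 3 libraries of a group came from separate cultures, so the p-values measure only the spread between libraries, which may be technical.

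PRC2 places methyl groups on lysine 27 of histone H3 (H3K27) and so keeps developmental genes silent. Its active site lies in EZH2, the form of dividing cells, or in EZH1, and it needs EED and SUZ12 for activity. DNA methylation is copied onto new strands by DNMT1, which UHRF1 brings to freshly replicated DNA, whereas DNMT3A and DNMT3B write it at unmethylated sites. TET enzymes oxidise methylcytosine and so open the way to its removal. In breast cancer EZH2 is known for its link to aggressive, poorly differentiated tumours.

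The libraries held between 36979221 and 38799331 counts, and the spread between replicates was small, with a biological coefficient of variation of 5.21%. The table lists genes by symbols in the style of mouse genes, 4648 of them Gm names, although the samples are labelled human. The species from which the reads came was not settled here, and LINC00115 is listed under no name, so that the direction of each change rests on the labels. Of 10 genes chosen as present in MDA-MB-231, the summed level was 7330 to 7440 normalized CPM (counts scaled to the library total) in the WT libraries and 7390 to 7530 in the KD libraries. Of these, 5 were higher and 2 lower in KD without overlap, against 37.8% of all genes tested in each direction. The log2 fold changes were −1.20 for S100a4 and 2.08 for Tgfbi, which was low, at a mean of 2.99 normalized CPM in WT and 12.7 in KD. Vim had the most counts, and Aldh1a3, an aldehyde dehydrogenase of breast cancer stem cells, had at most 4 counts in any library. RNA of genes listed for other cell types moved with the groups. The summed level of 10 lung epithelial genes was 1.7 to 2.01 normalized CPM in the WT libraries and 74.2 to 84.7 in the KD libraries, with 10 of 10 higher without overlap. That of 10 kidney genes was 9.24 to 9.64 and 27.7 to 31.6, with 7 higher and 1 lower. Of the lung genes 6, Scgb1a1 and Sftpc among them, and of the kidney genes 6, Kap and Umod among them, were at 0 in every WT library. The sum of 10 leukocyte genes was 35.2 to 35.9 and 98.1 to 110.0, mostly S100a8, with 3 higher and 1 lower and Cd3e at 0 in every library. Of 4 endothelial genes the sum was 0.318 to 0.664 and 56.8 to 59.4, nearly all Cdh5 in KD, with 2 higher. Pecam1 overlapped between the groups, and Kdr had at most 10 counts and Tek at most 2 in any library. Of 7 fibroblast genes the sum was 174.0 to 193.0 and 76.2 to 78.0, nearly all Pdgfra, with 3 lower. Of 8 genes chosen as low in MDA-MB-231 the sum was 579.0 to 600.0 and 812.0 to 851.0, with 4 higher and 1 lower. It was mostly Krt8, which was not low, at a mean of 472 normalized CPM in WT and 752 in KD. Gata3 was not low either, at 95.8 in WT and 53.2 in KD, and Erbb2 was at 17.0 and 27.6. The others, Esr1, Pgr, Epcam, Cdh1 and Foxa1, had means of at most 2.56 in either group. The counts of genes without overlap in every list stand beside the same 37.8% of all genes tested in each direction. The list counts, unlike that share, include genes that failed the filter on low counts. Among tested genes alone, lung had 9 higher, leukocytes 3 higher and 0 lower, and endothelium 1 higher. The part of other cells in the results that follow was not tested.

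Promoters of 5 members are shown because they hold a sequence feature that the choice of genes did not use. E2F factors, which drive genes of DNA replication, bind octamers of the kind TTTCCCGC, TTTCGCGC, TTTGGCGC or TTTGCCGC. These 4 octamers were searched on both strands in human RefSeq promoters (GRCh38.p14), each window holding 250 bases before and 50 bases after an annotated start. All 10 members had at least 1 window, and 5 of them, UHRF1, DNMT1, EZH2, EZH1 and SUZ12, held a match in at least 1 window, against 3.99% of 27305 genes. EED, the remaining PRC2 member, held none in its window, nor did the DNMT3 and TET members. Counted by window, 6 of 20 member windows held a match, against 3.31% of all windows. UHRF1 also held TTTCGCGC in another window, not shown, beginning 160 bases before the start of that window's transcript. The shares over all genes and windows were not matched for base composition or expression, and the contrast with the members was not tested. Stretches of 120 bases around the matches are given 5′ to 3′ on the gene's own strand, with the octamer, or its reverse complement, in capitals. They are chr19:4909401-4909520 on the plus strand for UHRF1, chr19:10194934-10195053 on the minus strand for DNMT1, chr7:148884272-148884391 on the minus strand for EZH2, chr17:42745091-42745210 on the minus strand for EZH1 and chr17:31936757-31936876 on the plus strand for SUZ12.
UHRF1: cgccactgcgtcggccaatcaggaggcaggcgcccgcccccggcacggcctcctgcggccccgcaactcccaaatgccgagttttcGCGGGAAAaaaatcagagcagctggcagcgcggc
DNMT1: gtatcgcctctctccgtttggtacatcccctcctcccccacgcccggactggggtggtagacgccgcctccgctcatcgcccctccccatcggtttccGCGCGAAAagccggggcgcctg
EZH2: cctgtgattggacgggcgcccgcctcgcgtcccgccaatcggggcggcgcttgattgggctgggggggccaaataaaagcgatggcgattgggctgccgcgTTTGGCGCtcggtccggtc
EZH1: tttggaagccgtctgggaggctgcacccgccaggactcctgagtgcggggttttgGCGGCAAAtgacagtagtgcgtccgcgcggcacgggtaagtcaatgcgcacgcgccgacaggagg
SUZ12: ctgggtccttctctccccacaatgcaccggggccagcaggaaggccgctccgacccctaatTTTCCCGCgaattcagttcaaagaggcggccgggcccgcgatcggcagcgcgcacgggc
In DNMT1 the octamer spans the annotated start, in EZH2 it begins 1 base after the first transcribed base, and in UHRF1 it begins 14 bases before it. In EZH1 it begins 115 bases and in SUZ12 189 bases before the start. These are human sequences beside counts listed under mouse-style symbols, and a match describes the letters only.

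Across the 10 genes, LINC00115 KD went with less RNA of the maintenance pair Uhrf1 and Dnmt1 and more of Dnmt3b. There was also less of Tet2 and Ezh1, and little change of Ezh2, Eed and Suz12. At an adjusted p under 0.05 (edgeR's quasi-likelihood test, Benjamini-Hochberg over all 13497 genes), 5 members fell, 2 rose and 3 did not pass. Over all genes tested, 73.4% passed in either direction and 36.7% were lower, so the 7 members that changed are near the background share. Adding the study's fold threshold of 2, only Dnmt3b was called, so that 0 members were lower, against 9.98% of all genes, and 1 was higher, against 10.2%. In either direction 20.2% of all genes were called. The median log2 fold change was −0.086 over the members and −0.0061 over all genes tested, and the median size of the change, without its sign, was 0.29 and 0.453. In bulk RNA, fewer cells that express a gene and less of its RNA per cell cannot be told apart. Levels of different members are not compared with each other, because counts were not scaled to gene length.

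**Figure D1:**
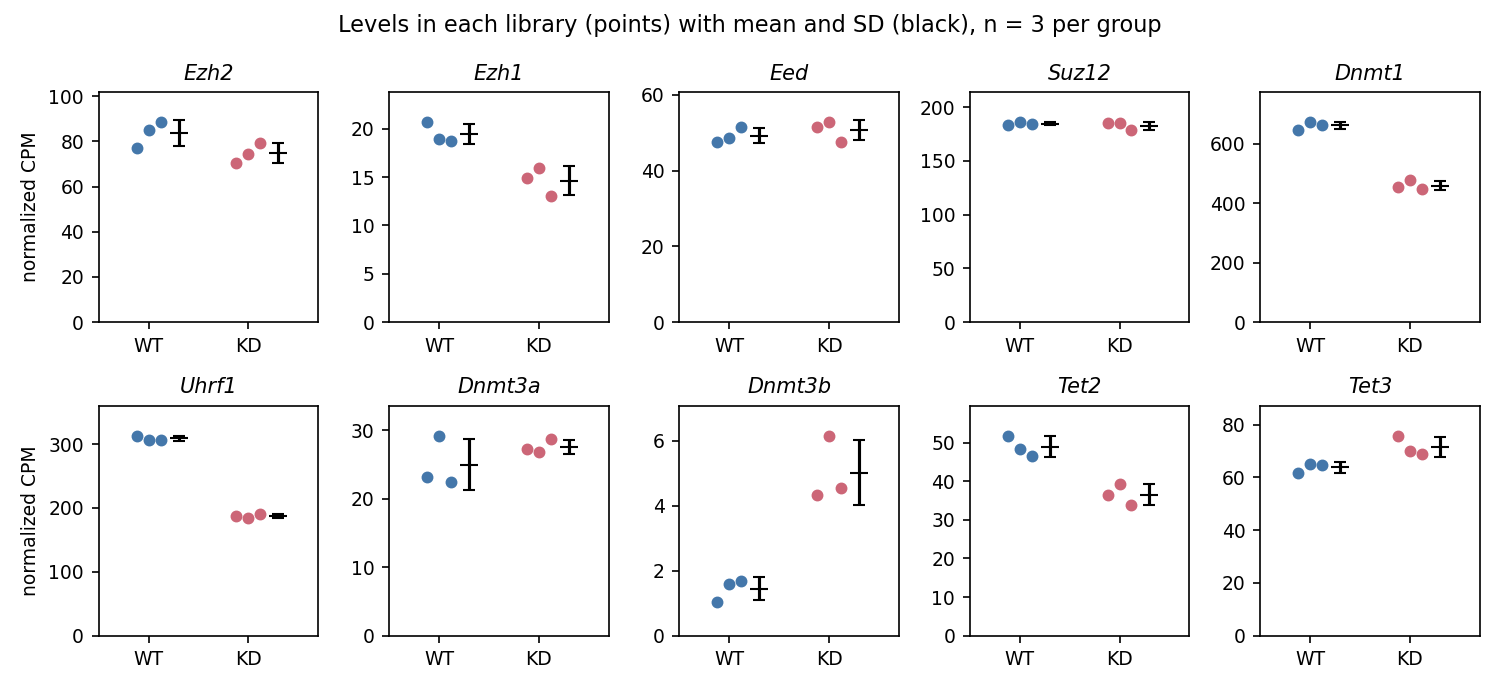
Normalized CPM (vertical axes, from 0) of the 10 genes in each of the 3 WT and 3 LINC00115 KD libraries (points), with the mean and SD in black. Uhrf1, Dnmt1, Ezh1 and Tet2 lie lower in every KD library, Dnmt3b and Tet3 lie higher, and Ezh2, Eed, Suz12 and Dnmt3a overlap.

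Uhrf1 fell by more than any other member. This protein reads hemimethylated CpG sites behind the replication fork, as well as histone marks, and marks histone H3 with ubiquitin to recruit DNMT1. Its level was 314, 307 and 307 normalized CPM in the WT libraries and 188, 185 and 190 in the KD libraries. The groups lay far apart, with a spread of at most 3.96 (SD, n = 3) within a group, and the KD mean was 0.607 of the WT mean. The log2 fold change was −0.72 (SE 0.03, adjusted p = 1.93e-19, edgeR's quasi-likelihood test), and 32.3% of all genes tested changed by more.

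Dnmt1, the maintenance methyltransferase itself, fell in the same direction and by less. Its level was 648, 673 and 665 normalized CPM in the WT libraries and 455, 477 and 447 in the KD libraries. The groups did not overlap, and the SD was 13.0 in WT and 15.7 in KD (n = 3 each). The log2 fold change was −0.53 (SE 0.03, adjusted p = 2.58e-16, edgeR), and 44.2% of genes changed by more. Within a library, the log2 ratio of Uhrf1 to Dnmt1 was −1.05, −1.14 and −1.12 in WT and −1.28, −1.37 and −1.24 in KD. The ratio was therefore lower in all KD libraries, by 0.19 on the log2 scale. The exact two-sided permutation test gave p = 0.1, the smallest that 3 libraries against 3 allow, and 0.175 adjusted over the 7 ratios compared.

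Dnmt3b was the member with the largest change and the fewest reads. It is a de novo methyltransferase of early embryos and of centromeric repeats. Its 39, 60 and 64 counts in the WT libraries became 167, 226 and 173 in the KD libraries, or 1.04, 1.59 and 1.69 against 4.32, 6.16 and 4.55 normalized CPM. Every KD library thus exceeded every WT library, and the KD mean was 3.48-fold the WT mean. The log2 fold change was 1.80 (SE 0.24, 95% interval 1.31 to 2.28, adjusted p = 3.25e-08, edgeR), a change that 8.70% of all genes tested surpassed. The part of the lung, kidney and other cells listed above in this rise was not tested.

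Dnmt3a, the other de novo methyltransferase, did not pass the test. Its level was 23.2, 29.2 and 22.5 normalized CPM in WT and 27.3, 26.8 and 28.8 in KD. The groups overlapped because WT replicate 2 was above all KD libraries. The log2 fold change was 0.15 (SE 0.08, 95% interval −0.02 to 0.31, adjusted p = 0.11, edgeR). Without WT replicate 2 it was 0.28 (adjusted p = 0.00338, edgeR), so that this library decides the call. The log2 ratio of Dnmt3b to Dnmt3a was −4.49, −4.20 and −3.73 in WT and −2.66, −2.12 and −2.66 in KD. It was higher in all KD libraries, by 1.66 (exact permutation p = 0.1, adjusted 0.175). The ratio of Dnmt1 to Dnmt3a was lower in all KD libraries, by 0.68 on the log2 scale (exact permutation p = 0.1, adjusted 0.175).

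**Figure D2:**
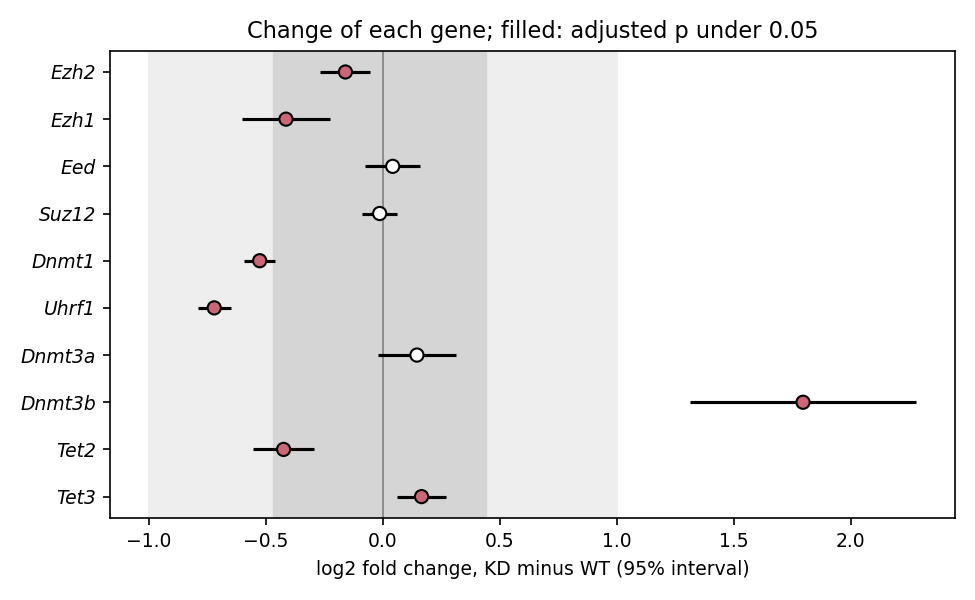
Log2 fold change of each gene, KD minus WT (horizontal axis), with its 95% interval; filled points have an adjusted p under 0.05, the dark band spans the values from the lower to the upper quartile of all genes tested (−0.465 to 0.441) and the light band a fold change of 2 each way. Only Dnmt3b lies outside the light band, and Uhrf1 and Dnmt1 are the members below the dark band.

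The catalytic subunits of PRC2 were both lower, Ezh1 by more than Ezh2. Ezh1 is the methyltransferase form of resting and differentiated cells. Its level was 20.7, 19.0 and 18.8 normalized CPM in WT and 14.9, 16.0 and 13.1 in KD. The groups did not overlap, and the log2 fold change was −0.41 (SE 0.09, adjusted p = 0.000149, edgeR). Ezh2 had 77.1, 85.0 and 88.5 normalized CPM in WT and 70.5, 74.5 and 79.4 in KD. The highest KD library was above the lowest WT library. Its log2 fold change of −0.16 (SE 0.05, 95% interval −0.27 to −0.05) passed the test (adjusted p = 0.00716, edgeR), but not without WT replicate 3 (−0.11, adjusted p = 0.0722) or without KD replicate 1 (−0.11, adjusted p = 0.0965). The log2 ratio of Ezh2 to Ezh1 differed by 0.26, with overlap between the groups (exact permutation p = 0.2, adjusted 0.2).

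For Eed and Suz12 no change was detected, and the intervals leave room only for small ones. Eed reads the H3K27 mark and so stimulates the complex. Its level was 47.6, 48.6 and 51.5 normalized CPM in WT and 51.5, 52.8 and 47.7 in KD, with a log2 fold change of 0.042 (95% interval −0.074 to 0.16, adjusted p = 0.512, edgeR). Suz12 holds the complex together. Its level was 183, 186 and 184 normalized CPM in WT and 185, 185 and 179 in KD, with a log2 fold change of −0.013 (95% interval −0.087 to 0.061, adjusted p = 0.752, edgeR). Of all genes tested, 98.5% changed by more than Suz12 and 94.9% by more than Eed. The log2 ratios of Ezh2 to Eed and of Ezh2 to Suz12 differed by −0.20 and −0.15, both with overlap (exact permutation p = 0.2 each, adjusted 0.2).

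Tet2 and Tet3 moved in opposite directions. Tet2, the dioxygenase often mutated in blood cancers, was at 51.8, 48.4 and 46.5 normalized CPM in WT and 36.3, 39.3 and 33.8 in KD. All KD libraries lay lower, with a log2 fold change of −0.42 (SE 0.06, adjusted p = 3.23e-07, edgeR). Tet3, the form of the oocyte and of neurons, was at 61.4, 65.2 and 64.6 normalized CPM in WT and 75.8, 70.0 and 68.7 in KD. All KD libraries lay higher, but by little, with a log2 fold change of 0.17 (SE 0.05, adjusted p = 0.00438, edgeR). The log2 ratio of Tet3 to Tet2 was 0.25, 0.43 and 0.47 in WT and 1.06, 0.84 and 1.02 in KD. The ratio differed by 0.59, without overlap (exact permutation p = 0.1, adjusted 0.175).

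**Figure D3:**
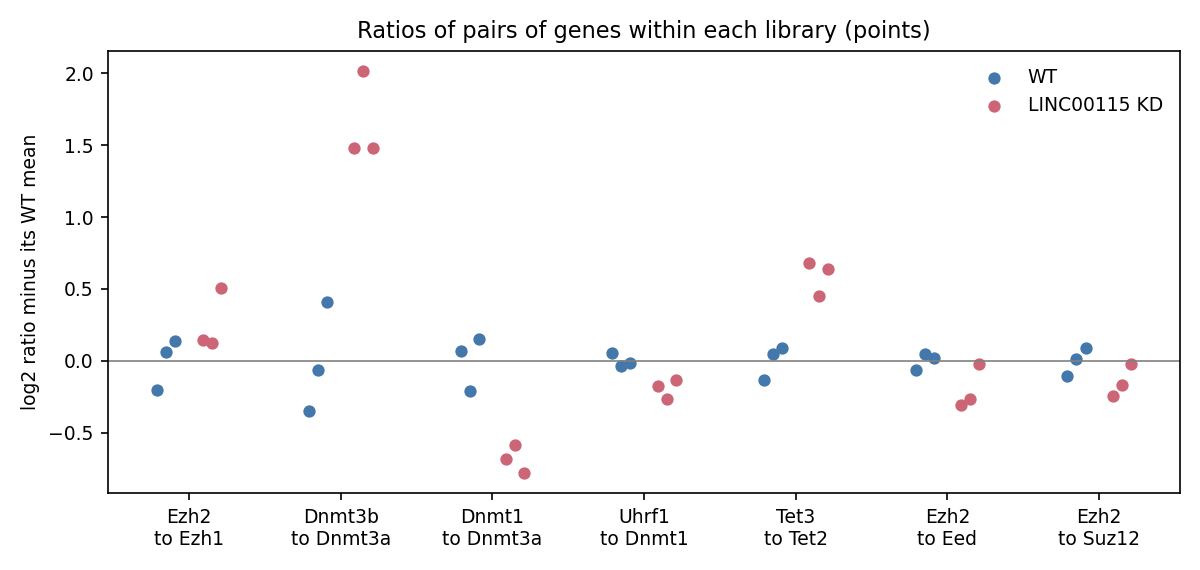
Log2 ratio of 7 pairs of members within each library, shown relative to the WT mean of that ratio (vertical axis); each point is a library. The KD libraries lie apart from the WT libraries for Dnmt3b to Dnmt3a (difference 1.66), Dnmt1 to Dnmt3a (−0.68), Uhrf1 to Dnmt1 (−0.19) and Tet3 to Tet2 (0.59), and overlap with them for the 3 ratios of Ezh2.

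In sum over the libraries, the 10 genes took 0.145% to 0.147% of all counts in WT and 0.108% to 0.112% in KD, a difference set mainly by the abundant Dnmt1 and Uhrf1. Without overlap between the groups, 4 members were lower and 2 higher. Over all genes tested 75.6% did not overlap, 37.8% with the KD libraries lower and 37.8% with them higher.

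Other genes of DNA methylation were read from a list of 16, all of which were tested. Of these, 6 fell and 8 rose, against 36.7% of all genes in each direction, and the median log2 fold change was 0.15. Tet1, the dioxygenase of embryonic stem cells, fell from 3.37, 2.09 and 2.33 to 0.543, 0.817 and 0.50 normalized CPM (log2 fold change −2.06, SE 0.35, adjusted p = 2.94e-06, edgeR), on at most 30 counts in a KD library. Dnmt3l, the inactive partner that stimulates DNMT3A and DNMT3B, rose from 2.10, 2.49 and 3.10 to 6.49, 6.62 and 6.56 (log2 fold change 1.35, SE 0.18). It thus moved with Dnmt3b, and no KD library of either gene overlapped with WT. Mat2a, which makes the methyl donor S-adenosylmethionine, rose from 214 ± 4.16 to 483 ± 19.6 normalized CPM (SD, n = 3; log2 fold change 1.17). Apobec1, a cytidine deaminase that edits RNA, rose from 4.78 ± 0.174 to 24.7 ± 1.28 (log2 fold change 2.37). Below the fold threshold, the RNA methyltransferase Trdmt1 rose (0.62), the stress gene Gadd45b rose (0.54) and the mitochondrial dehydrogenase Idh2 fell (−0.51). Uhrf2, the paralog of Uhrf1, was named after its values were seen. It fell from 89.7 ± 2.95 to 66.7 ± 4.13 normalized CPM (SD, n = 3; log2 fold change −0.43).

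Of 8 genes from the families of proteins that bind methylated CpG sites, 5 fell and 2 rose, against 36.7% of all genes in each direction. The median was −0.20. Mbd4, a glycosylase that repairs deaminated methylcytosine, fell from 19.3 ± 0.327 to 5.30 ± 0.444 normalized CPM (SD, n = 3; log2 fold change −1.87, SE 0.11, adjusted p = 4.08e-17, edgeR). Zbtb4, a zinc finger reader, fell from 51.3 ± 2.97 to 24.1 ± 0.667 (SD, n = 3; log2 fold change −1.09). Smaller changes were seen for Zbtb33, or Kaiso (−0.40), Mbd2 (0.28) and Mbd1 (−0.22), all past the test.

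Among 9 of 10 listed accessory subunits of PRC2 that were found, 6 fell and 2 rose, against 36.7% of all genes in each direction, with a median of −0.18, and Ezhip was not in the table. The accessory subunits steer the core to its targets. Jarid2, which anchors PRC2 at unmethylated CpG islands, fell from 33.6, 28.2 and 29.4 to 13.5, 12.2 and 9.93 normalized CPM (log2 fold change −1.36, SE 0.09, adjusted p = 6.99e-15, edgeR). The Polycomb-like subunits Phf1 and Mtf2 fell by 0.89 and 0.55 on the log2 scale. The histone chaperones Rbbp4 and Rbbp7, listed here but also counted to the core, both fell (log2 fold change −0.46 and −0.14). Epop, which links PRC2 to elongin, rose from 2.66 ± 0.565 to 6.18 ± 0.944 normalized CPM (SD, n = 3; log2 fold change 1.22). Both H3K27 demethylases fell. Kdm6b went from 216, 207 and 199 to 94.8, 90.4 and 96.8 normalized CPM (log2 fold change −1.14, SE 0.04, adjusted p = 6.08e-23, edgeR), and Kdm6a fell by 0.51 on the log2 scale.

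**Figure D4:**
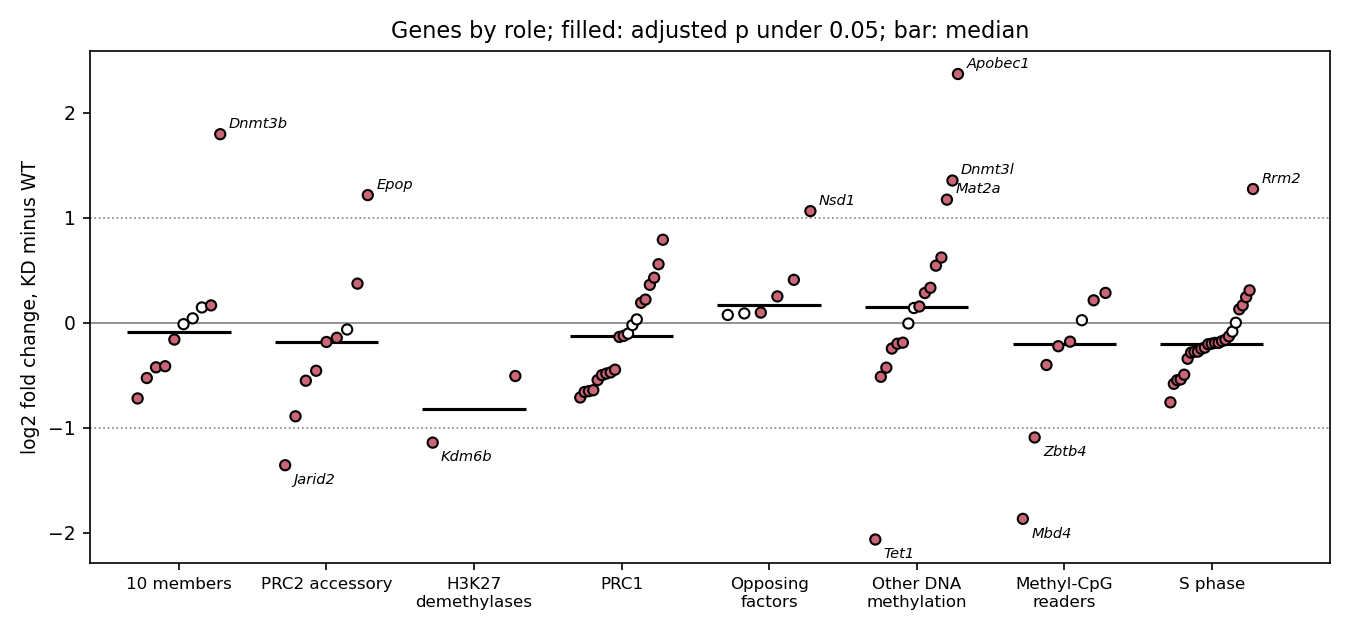
Log2 fold change (vertical axis) of the 10 members and of 7 lists of related genes, each point a gene that was tested, filled where the adjusted p is under 0.05, with the median as a bar and fold changes of 2 as dotted lines. Genes beyond 2-fold are named, and only Dnmt3b is among the members (1.80).

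A list of 25 S phase genes gives the replication context of Dnmt1 and Uhrf1, whose RNA is known to peak in S phase. Of the 25, 18 fell and 5 rose (72.0% and 20.0%, against 36.7% of all genes tested in each direction), with a median of −0.20. Over 13 alternatives of processing, the call of Gins2 was lost in 11, of Ccne1 in 5, and of Mcm2 and Pola1 in 1 each. Rfc4 gained a call in 1. Cdc6, a loader of the replicative helicase, had the lowest value of the list (−0.76), followed by the histone RNA binding protein Slbp (−0.58) and the primase subunit Prim1 (−0.55). Rrm2, a subunit of ribonucleotide reductase, rose from 149 ± 11 to 359 ± 10.6 normalized CPM (SD, n = 3; log2 fold change 1.27). The fall of Dnmt1 and Uhrf1 thus stood beside falls of most S phase genes, and its dependence on cell cycle phase was not tested.

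Genes that these systems are known to silence were mostly near or at 0 counts. Of 15 germline genes silenced by DNA methylation in mouse somatic cells, 9 were in the table and 2 were tested. Of these and of the PRC2 targets that follow, those that did not pass the filter or the test are named after their values were seen. Tex101, a germ cell surface protein, had 0 counts in every WT library and 40, 22 and 26 in the KD libraries, at least 9.70-fold above the limit of 3 counts per library. Brdt did not pass (log2 fold change −0.16, adjusted p = 0.821, edgeR), and Ddx4, Sycp1 and Stk31 had at most 1 count in any library. Of 16 genes known as PRC2 targets, 11 were in the table and 4 were tested. Cdkn2a and Cdkn2b had at most 1 count in any library, and the reason for such low counts, here and above, was not tested. Gata4 rose (0.55, but 0.37 and adjusted p = 0.0671 without KD replicate 3, edgeR) and Hoxa10 fell (−0.41). Hoxa9 fell from 16, 37 and 16 to 2, 17 and 3 counts (log2 fold change −1.62, adjusted p = 0.0238, edgeR), a call that was lost with the DESeq2 Wald test (−1.62, adjusted p = 0.0703), without WT replicate 2 (−1.10), without KD replicate 1 (−1.16) or without KD replicate 3 (−1.24), while without KD replicate 2 the value was −3.15.

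**Figure D5:**
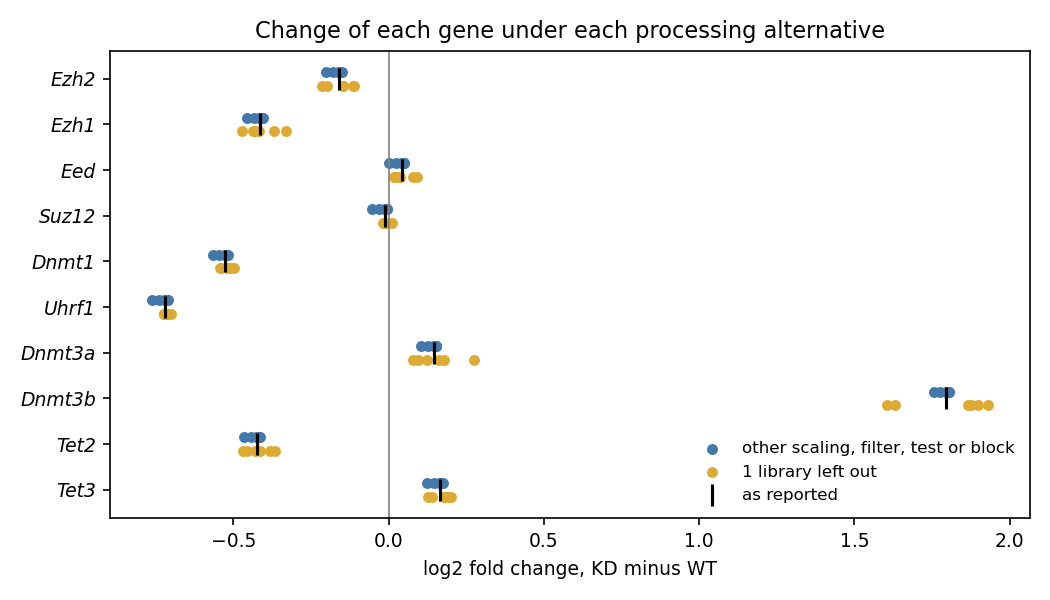
Log2 fold change of each member (horizontal axis) as reported (black bar), under each other scaling, filter, test or replicate block (blue) and with 1 library left out at a time (yellow). Uhrf1 stayed between −0.76 and −0.70, Dnmt1 between −0.57 and −0.50 and Dnmt3b between 1.61 and 1.93, while the values of Suz12 lay on both sides of 0.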

How the data were processed

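RNA-seq libraries of 3 LINC00115 KD and 3 WT samples were analysed. The authors trimmed adapters, mapped reads with HISAT2 to hg19 per the methods (hg38 in the submitters' processing notes, which also name featureCounts and DESeq2) and deposited whole-number counts per gene without normalization. How strand was used, and which annotation, is not given in the sources used here, so reads shared by paralogs or overlapping genes may be split in unknown ways. The test was run with edgeR 4.0.16 under R 4.3.3 (filterByExpr with a minimum count of 10 and total of 15, TMM scaling, quasi-likelihood test, group only, Benjamini-Hochberg over 13497 genes). SE was obtained as the absolute log2 fold change over the root of F. Thresholds were an adjusted p under 0.05 and, for calls, a fold change over 2, as in the study. Ratios of members within a library were compared by exact permutation tests. The code was tested on simulated data. Alternatives were other scalings, filters, DESeq2 1.42.0, each replicate left out and a replicate block. The members and lists were chosen with earlier results of these data known. Named from the lists were genes past both thresholds whose higher group had no library under 10 counts, and up to 3 others per list with the largest change past the test and at least 100 counts in every library. Counts of 0 allow up to 3 counts, for counting error only. A listed gene is not reported here.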

Additional observations from a re-analysis of the deposited data

How the results depend on the processing

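Under the alternatives of scaling, filter and test, 5 members stayed lower and 2 higher at an adjusted p under 0.05, and only Dnmt3b passed the fold threshold. With 1 library left out, 4 to 5 were lower and 2 to 3 higher. The calls of Ezh2 and Dnmt3a depended on single libraries, as given above. The sign of Suz12 was not fixed, with −0.018 to 0.011 when a library was left out. With at least 10 counts in every sample, genes at both thresholds numbered 903 higher in place of 1381 and 919 lower in place of 1347. This filter drops any gene low in 1 group only. No scaling moved the median of all genes by over 0.1. Replicate numbers are shared by the groups, but deviations of same-numbered libraries did not correlate (r = 0.0135, −0.0194 and −0.0202 across genes). A replicate block gave 1316 lower and 1360 higher genes, changed the call of no member and left the ratios at their values with a smallest possible p of 0.25. The few counts of Dnmt3b, Tet1 and Hoxa9 limit the precision of their changes.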

Other observations

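PRC1, the complex that reads the H3K27 mark and adds ubiquitin to histone H2A, was measured with 20 subunits and partners, all of which were tested. Of these, 11 fell and 6 rose (55.0% and 30.0%, against 36.7% of all genes tested in each direction), with a median log2 fold change of −0.13. None changed by more than 2-fold. Over 13 alternatives of processing, the call of Phc3 was lost in 4 and that of Rybp in 5, and Bcor gained a call in 1. Phc1, a Polyhomeotic subunit, fell from 37.6 ± 1.7 to 22.9 ± 1.29 normalized CPM (SD, n = 3; log2 fold change −0.71), and Kdm2b, which brings a variant PRC1 to CpG islands, fell from 121 ± 2.71 to 76.4 ± 3.09 (−0.66). Yaf2, of the variant complexes, rose from 50.1 ± 1.38 to 86.7 ± 2.81 (0.79). Of 6 genes that oppose Polycomb, 4 rose (edgeR, adjusted p under 0.05), against 36.7% of all genes tested, and Asxl2 and Bap1 did not pass. The log2 fold changes of all 6 lay between 0.075 and 1.06. Nsd1, which methylates lysine 36 of histone H3, rose from 22 ± 2.43 to 45.9 ± 3.67 (1.06, or 0.98 without WT replicate 1), and its relative Nsd2 rose by 0.41. Asxl1, a cofactor of the histone H2A deubiquitinase BAP1, rose by 0.25, and Setd2 by 0.097, a call that was lost with upper quartile scaling (0.056, adjusted p = 0.164) and with library size alone (0.078, adjusted p = 0.0521).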
